A study of Mus musculus with 311 samples.

Results

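The 54 genes described here are the cytochrome P450 genes of the mouse liver array other than Cyp4a12a, Cyp4a12b, Cyp2d9, Cyp8b1, Cyp2b10, Cyp3a11, Cyp2c37 and Cyp2c38. A gene was taken when its symbol was Cyp followed by a digit and a letter and when its probe gave a value on at least 95% of arrays. Of 64 such symbols on the array, 8 were left out by name, and Cyp2e1 (218 arrays, 70.1%) and Cyp2f2 (274 arrays, 88.1%) did not reach the share of arrays asked for. Each gene was read from 1 probe, the one with fewest missing values, and the array measured 11387 genes in this way. The members fall into 26 subfamilies, of which 10 hold more than 1 member.

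Livers came from 311 F2 animals of an intercross between C57BL/6J and C3H/HeJ, in which both parental strains carried the ApoE null background, so that every animal of the cross lacks apolipoprotein E. All ate a Western-type diet rich in fat between 8 and 24 weeks of age, and none was left on another diet. Each animal's RNA was hybridised on 1 array against a pool made of equal parts of all the samples, and a value is the log10 ratio of the animal over that pool. The labels state that both sexes were used, but no sex per animal was used here. The arrays were instead divided at a log10 ratio of -0.5 for Eif2s3y, which encodes a translation initiation factor subunit from the Y chromosome. The 155 Eif2s3y-high arrays lay between -0.219 and 0.527 (median 0.358), and the 156 Eif2s3y-low arrays between -1.76 and -0.875 (median -1.46). Because the division follows a measured level and not a label, differences between these sets of arrays were not tested, and spread, shape and correlation were taken within each set.

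Cytochromes P450 are haem enzymes that insert an oxygen atom into their substrate with electrons passed on by a reductase. Families Cyp1 to Cyp3 act mostly on drugs, plant compounds and steroids, Cyp4 enzymes hydroxylate the ends of fatty acids and eicosanoids, and the remaining families hold single enzymes of sterol, steroid, bile acid, retinoic acid and vitamin D metabolism. In rodent liver many of these genes differ between the sexes under the pattern of growth hormone release, and others answer to nuclear receptors and to the aryl hydrocarbon receptor. A ratio to a liver pool carries no level of its own, so genes cannot be ranked by abundance, and the tissue cannot be checked through a level of its defining genes. In bulk liver, fewer cells of a type and less RNA per cell cannot be told apart.

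The median log10 ratio of an array ran between -0.0218 and 0.0172, and the SD over its probes between 0.0658 and 0.206. Of 48205 pairs of arrays, 131 had r under -0.3, the lowest being -0.435, and since the labels name the dye of each sample the direction of the ratio was kept. The mean log10 ratio of the pancreas markers ran between -1.51 and 1.15 on Eif2s3y-high arrays and between -1.46 and 1.09 on Eif2s3y-low arrays. The mean of the skeletal muscle markers ran between -0.331 and 0.857 and between -0.266 and 0.917. On 11 arrays, 5 of them Eif2s3y-high, a marker of either tissue lay 10-fold or more above the pool, and counts were also taken without them.

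P450 genes varied widely between animals. Spread was the SD between animals divided by the median SD of all genes in the same set of arrays, and 3 times the median was counted as wide. By that count 11 members were wide on Eif2s3y-high arrays, where 3.8% of all genes were, and 9 on Eif2s3y-low arrays, where 3.96% of all genes were. 15 members passed in at least 1 set and 5 in both (Cyp17a1, Cyp2c23, Cyp2c39, Cyp2c55 and Cyp3a13). The median multiple over members was 1.82 and 1.49, and 46 and 44 members lay above the median gene.

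**Figure D1:**
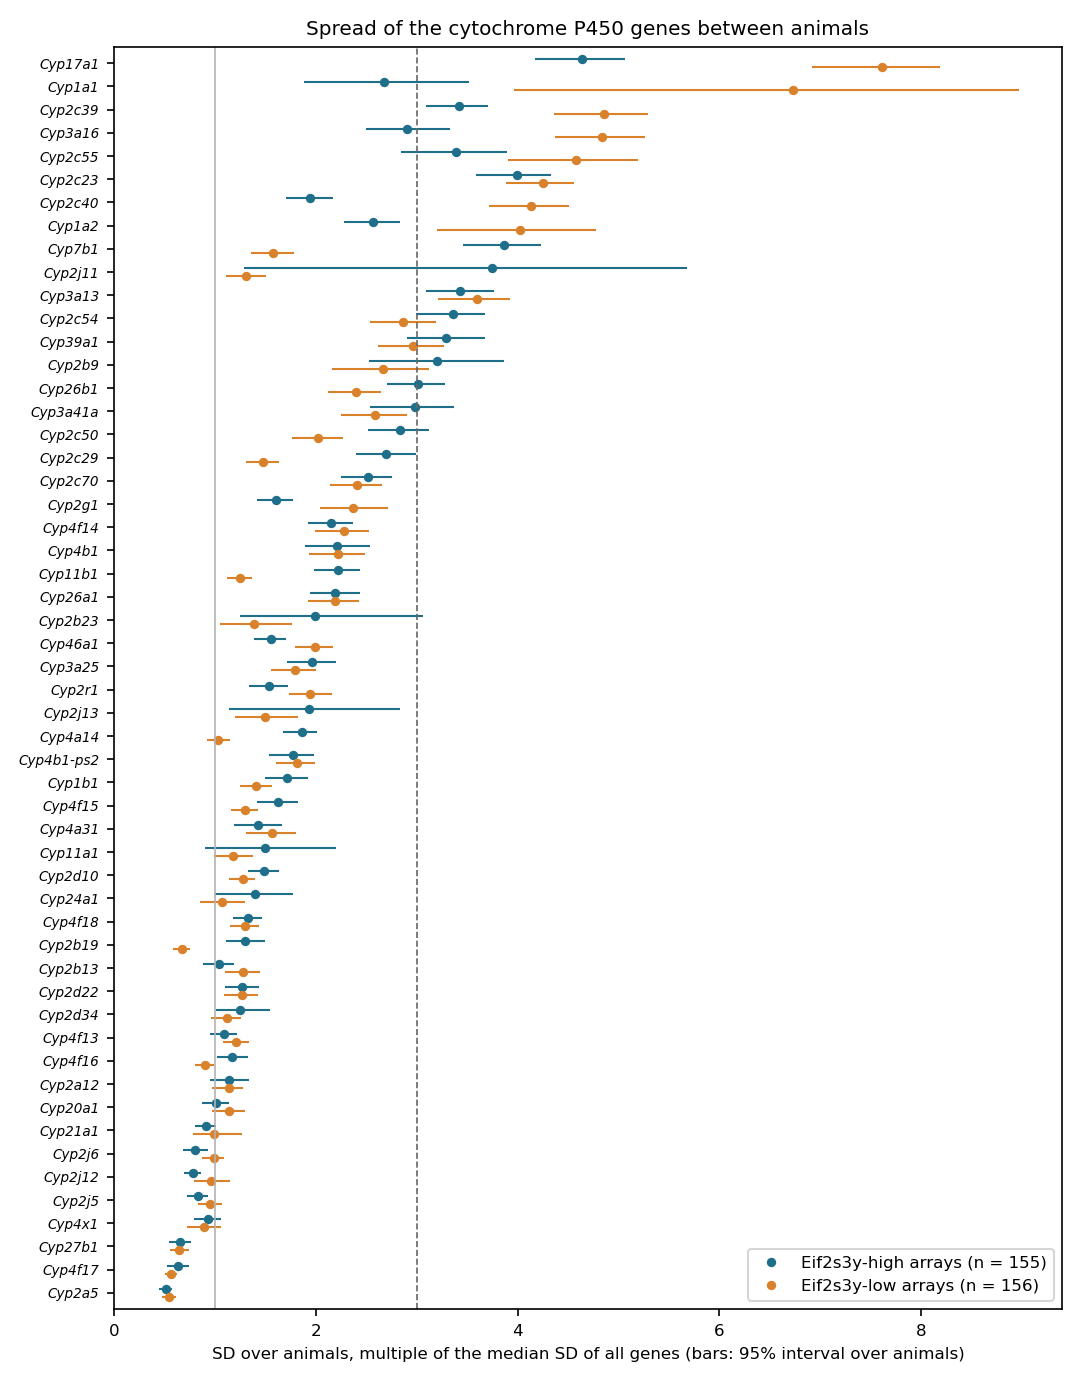
Spread of each of the 54 P450 genes (SD between animals divided by the median SD of all genes), for Eif2s3y-high and Eif2s3y-low arrays, with bars for the 95% interval over animals. Cyp17a1 reaches the largest multiple in both sets (4.63 and 7.61), while Cyp2a5 has the smallest (0.515 and 0.550).

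The widest of the steroid enzymes was Cyp17a1, the 17-alpha-hydroxylase and lyase of androgen synthesis. Its log10 ratio had a lowest, median and highest value of -1.19, -0.678 and 0.254 on Eif2s3y-high arrays, against -1.09, 0.0722 and 0.721 on Eif2s3y-low arrays. The SD multiple was 4.63 (95% interval 4.17 to 5.06) and 7.61 (6.91 to 8.18). The fold between the 5th and 95th percentile of animals was 8.96 and 30.5. The ranges of the sets overlap, and 2 of 155 Eif2s3y-high arrays stood above the Eif2s3y-low median.

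Among enzymes of oxysterols, Cyp7b1, the oxysterol 7-alpha-hydroxylase, ran over -0.417, 0.145 and 0.816 (lowest, median, highest) on Eif2s3y-high arrays and over -0.616, -0.432 and -0.0969 on Eif2s3y-low arrays. Its multiple was 3.87 (3.45 to 4.23) and 1.58 (1.36 to 1.79), a narrower spread on Eif2s3y-low arrays that still exceeded that of the median gene. Cyp39a1, which 7-alpha-hydroxylates 24-hydroxycholesterol, had multiples of 3.29 (2.90 to 3.67) and 2.97 (2.62 to 3.27). Cyp26b1, an enzyme that breaks down retinoic acid, had 3.02 (2.70 to 3.28) and 2.40 (2.13 to 2.65), just past the threshold in the Eif2s3y-high set. Its relative Cyp26a1 had 2.19 in both sets.

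The Cyp2c subfamily, whose enzymes act on drugs and turn arachidonic acid into epoxides, had median multiples of 3.10 and 3.5 over 8 members. Cyp2c23, an arachidonic acid epoxygenase, had 3.99 (3.59 to 4.33) and 4.26 (3.88 to 4.56). Cyp2c39, for which retinoic acid is a known substrate, had 3.42 (3.09 to 3.71) and 4.86 (4.36 to 5.29). Cyp2c55, which hydroxylates arachidonic acid, had 3.39 (2.84 to 3.89) and 4.58 (3.90 to 5.19), and it ranged on Eif2s3y-low arrays between -1.16 and 0.762. For Cyp2c40 the multiple was 1.95 (1.70 to 2.17) on Eif2s3y-high arrays and 4.13 (3.72 to 4.50) on Eif2s3y-low arrays. Its further probes had 2.17, 2.74 and 1.36 on Eif2s3y-high and, in the same order, 3.01, 2.26 and 1.31 on Eif2s3y-low arrays. The size of the multiple and the contrast between the sets therefore depend on the probe. Cyp2c54 had 3.36 (3.00 to 3.68) and 2.87 (2.54 to 3.19). Cyp2c29 (2.70 and 1.5) and Cyp2c70, which makes muricholic acids in mouse bile (2.52 and 2.41), stayed under the threshold, as did Cyp2c50 (2.84 and 2.02).

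In the Cyp3a subfamily of steroid and drug hydroxylases the median multiples were 2.94 and 3.10 over 4 members. Cyp3a16 had 2.90 (2.5 to 3.34) and 4.84 (4.37 to 5.26), and Cyp3a13 had 3.43 (3.10 to 3.77) and 3.60 (3.22 to 3.92). Cyp3a41a lay just outside on Eif2s3y-high arrays at 2.98 and had 2.59 on Eif2s3y-low arrays. Its 2 further probes, present on fewer arrays (136 or fewer and 102 or fewer), passed the threshold in both sets, with 3.34 and 3.35 on Eif2s3y-high and 4.83 and 4.88 on Eif2s3y-low arrays. Cyp2b9, of the phenobarbital-inducible Cyp2b subfamily, had 3.20 (2.52 to 3.87) and 2.67 (2.16 to 3.12). Its other probe, which did not follow the first, had 0.569 and 0.628, so the call rests on the probe used.

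Cyp2j11 entered the wide genes of the Eif2s3y-high set (3.75, interval 1.29 to 5.68) through 2 arrays, at -1.97 and at the file's upper limit of 2. Its multiple was 1.31 on Eif2s3y-low arrays, and the median absolute deviation gave 1.36 in the Eif2s3y-high set. The other probe of the gene did not follow the first (r = -0.0696 over 152 Eif2s3y-high animals and 0.0924 over 155 Eif2s3y-low animals).

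Below the threshold the members ran over a wide range, and the least variable lay under the median gene. Cyp2a5, the coumarin 7-hydroxylase, had 0.515 and 0.550, and Cyp4f17 had 0.633 and 0.571. Cyp27b1, which activates vitamin D mainly in the kidney, had 0.658 and 0.649. The Cyp2j subfamily had medians of 0.830 and 0.988, while Cyp4f, known for the inactivation of leukotriene B4, had 1.25 in both sets, and Cyp2d had 1.27 in both. Cyp4b had 1.99 and 2.02, Cyp2b 1.65 and 1.33, Cyp4a 1.65 and 1.30, and Cyp2a 0.830 and 0.845. For genes of adrenal steroid synthesis the values were 1.5 and 1.18 for Cyp11a1, 2.22 and 1.25 for Cyp11b1, and 0.913 and 0.996 for Cyp21a1. The other probe of Cyp21a1, which hardly followed the one used (r = 0.156 and 0.182), had 0.691 and 2.26.

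Medians of the sets of arrays lay 2-fold or more apart for 8 members, where 0.738% of all genes did so. 2 were higher on Eif2s3y-high arrays, where 0.422% of all genes were, and 6 were lower, where 0.316% of all genes were. The ranges overlapped for all 54 members, and for 3 of the 11387 genes they did not.

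Higher on Eif2s3y-high arrays were Cyp7b1, by 0.577 in the log10 ratio (3.77-fold), and Cyp26b1, by 0.358 (2.28-fold). For Cyp7b1, 125 of 154 Eif2s3y-high arrays stood above the highest Eif2s3y-low array. Cyp26b1 ran over -0.344, 0.136 and 0.577 (lowest, median, highest), against -0.639, -0.222 and 0.169 on Eif2s3y-low arrays, and 68 of 155 stood above the highest of the other set. Cyp11b1, the steroid 11-beta-hydroxylase, stayed just under the fold asked for (0.291, 1.95-fold), with 116 of 154 Eif2s3y-high arrays above the highest Eif2s3y-low array.

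Lower on Eif2s3y-high arrays were Cyp17a1 (-0.750, 5.62-fold), Cyp2c40 (-0.496, 3.13-fold), Cyp3a16 (-0.482, 3.03-fold), Cyp2c39 (-0.373, 2.36-fold), Cyp39a1 (-0.346, 2.22-fold) and Cyp2g1 (-0.345, 2.21-fold). Cyp2c40 ran over -0.774, -0.423 and 0.0211 on Eif2s3y-high arrays, against -0.477, 0.0728 and 0.663 on Eif2s3y-low arrays, and 2 further probes of the gene gave medians of the same order (-0.349 and -0.301, against 0.0886 and 0.118). The fourth probe differed less (-0.0288 against 0.0265). Cyp3a16, known from fetal and female mouse liver, ran over -1.22, -0.407 and -0.0551, against -0.686, 0.0747 and 0.849. Cyp2c39 ran over -0.769, -0.224 and 0.223, against -0.573, 0.149 and 0.567. Cyp39a1 ran over -0.802, -0.325 and 0.408, against -0.548, 0.0208 and 0.475. Cyp2g1, best known from the olfactory mucosa, ran over -0.540, -0.216 and 0.0619, against -0.315, 0.129 and 0.688. No Eif2s3y-high array stood above the Eif2s3y-low median for Cyp2c40, Cyp3a16 or Cyp2g1, 2 did for Cyp2c39, and 10 of 155 did for Cyp39a1.

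**Figure D2:**
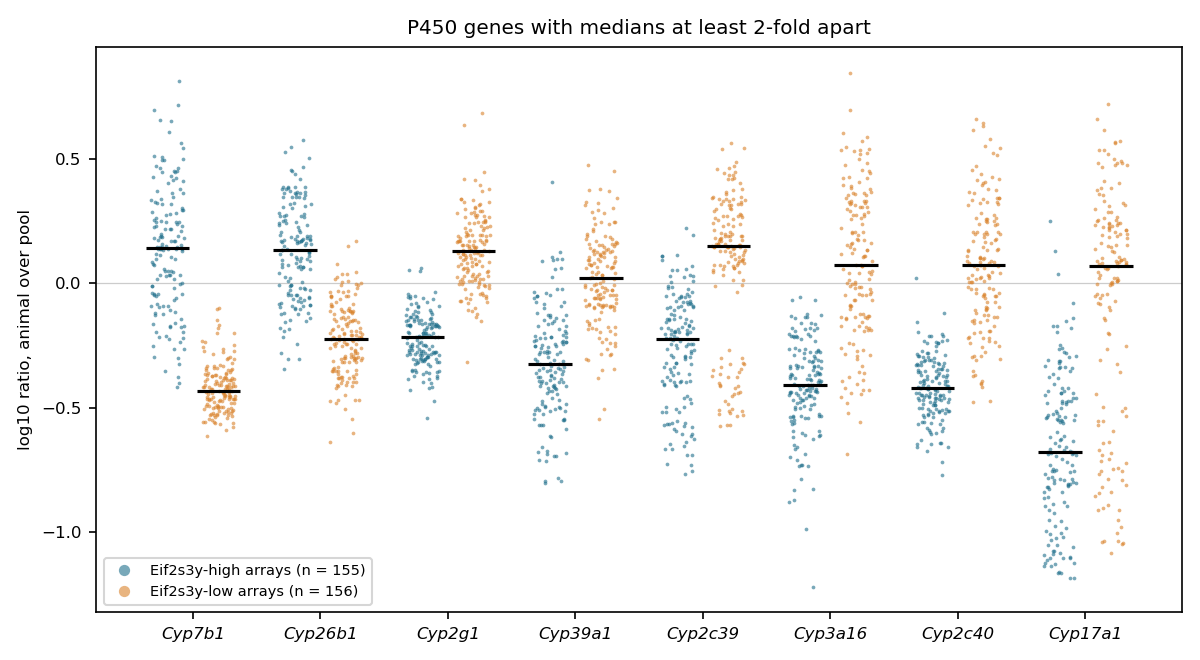
Log10 ratio of animal over pool for the 8 P450 genes whose medians lie at least 2-fold apart, 1 point per animal, Eif2s3y-high left of Eif2s3y-low within each gene. Cyp7b1 and Cyp26b1 are higher on Eif2s3y-high arrays and the other 6 lower, and the point clouds overlap in every gene.

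Outside the fold asked for, Cyp3a41a was lower on Eif2s3y-high arrays (-0.240 in the log10 ratio). By its 2 further probes, on fewer arrays, it passed the fold, with differences of -0.416 (2.61-fold) and -0.426 (2.67-fold). Also lower were Cyp2c70 (-0.177), the steroid hydroxylase gene Cyp2a12 (-0.132) and Cyp46a1, the cholesterol 24-hydroxylase (-0.132). The fatty acid hydroxylase gene Cyp4a14, a target of PPAR-alpha, depended on the probe. The probe used had medians of 0.0457 on Eif2s3y-high and -0.0415 on Eif2s3y-low arrays, while the other gave -0.192 and 0.126, and the probes correlated at r = 0.389 and 0.424.

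Some members held separate levels. A gene was called a mixture of levels when normals of a common SD in the proportions 1:1, 3:1 or 1:2:1, those in which alleles of an intercross segregate, beat a normal, a Student t and a skewed distribution by 10 in the Bayesian information criterion (BIC). 2 members were called on Eif2s3y-high arrays, where 0.817% of all genes were, and 5 on Eif2s3y-low arrays, where 0.896% of all genes were. All were of the form 3:1 with the lower level the rarer, a form found in 0.624% and 0.703% of all genes. No member was called 1:1, where 0.0703% and 0.0176% of all genes were, or 1:2:1, where 0.123% and 0.176% were. Of the remaining members, 40 and 37 were nearest to a normal, 7 and 7 had heavy tails, and 5 and 5 were skewed, where 73.7% and 76.9%, 22.4% and 19.3%, and 3.13% and 2.93% of all genes were.

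Both sets gave separate levels for Cyp2c23, on chromosome 19, and Cyp3a13, on chromosome 5. For Cyp2c23, 44 Eif2s3y-high animals averaged -0.387 and 111 averaged 0.0666, while 48 Eif2s3y-low animals averaged -0.461 and 107 averaged 0.00928, levels 2.84-fold and 2.95-fold apart. For Cyp3a13, 39 Eif2s3y-high animals averaged -0.399 and 116 averaged 0.0226, while 40 Eif2s3y-low animals averaged -0.361 and 115 averaged 0.0475, levels 2.64-fold and 2.56-fold apart. The share of animals at the lower level was 28.4% and 31.0% for Cyp2c23, and 25.2% and 25.8% for Cyp3a13. The call for Cyp2c23 on Eif2s3y-high arrays had a margin of 10.5 and was lost without the 10 arrays of largest spread and without the 11 arrays strong in markers of pancreas or muscle, whereas Cyp3a13 (23.1) kept it.

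Eif2s3y-low arrays alone gave a call for Cyp17a1, Cyp2c39 and Cyp46a1, though the difference between the sets was not tested. Cyp17a1, on chromosome 19, had 43 animals at a mean of -0.759 and 113 at 0.178, an 8.66-fold gap. Cyp2c39, on the same chromosome, had 36 at -0.427 and 120 at 0.222, a 4.45-fold gap, and no animal lay between -0.267 and -0.034. Cyp46a1, on chromosome 12, had 37 at -0.128 and 119 at 0.111, a 1.73-fold gap. On Eif2s3y-high arrays Cyp2c39 missed the call with a margin of 8.77, and on Eif2s3y-low arrays Cyp2c70 missed it with 9.48.

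**Figure D3:**
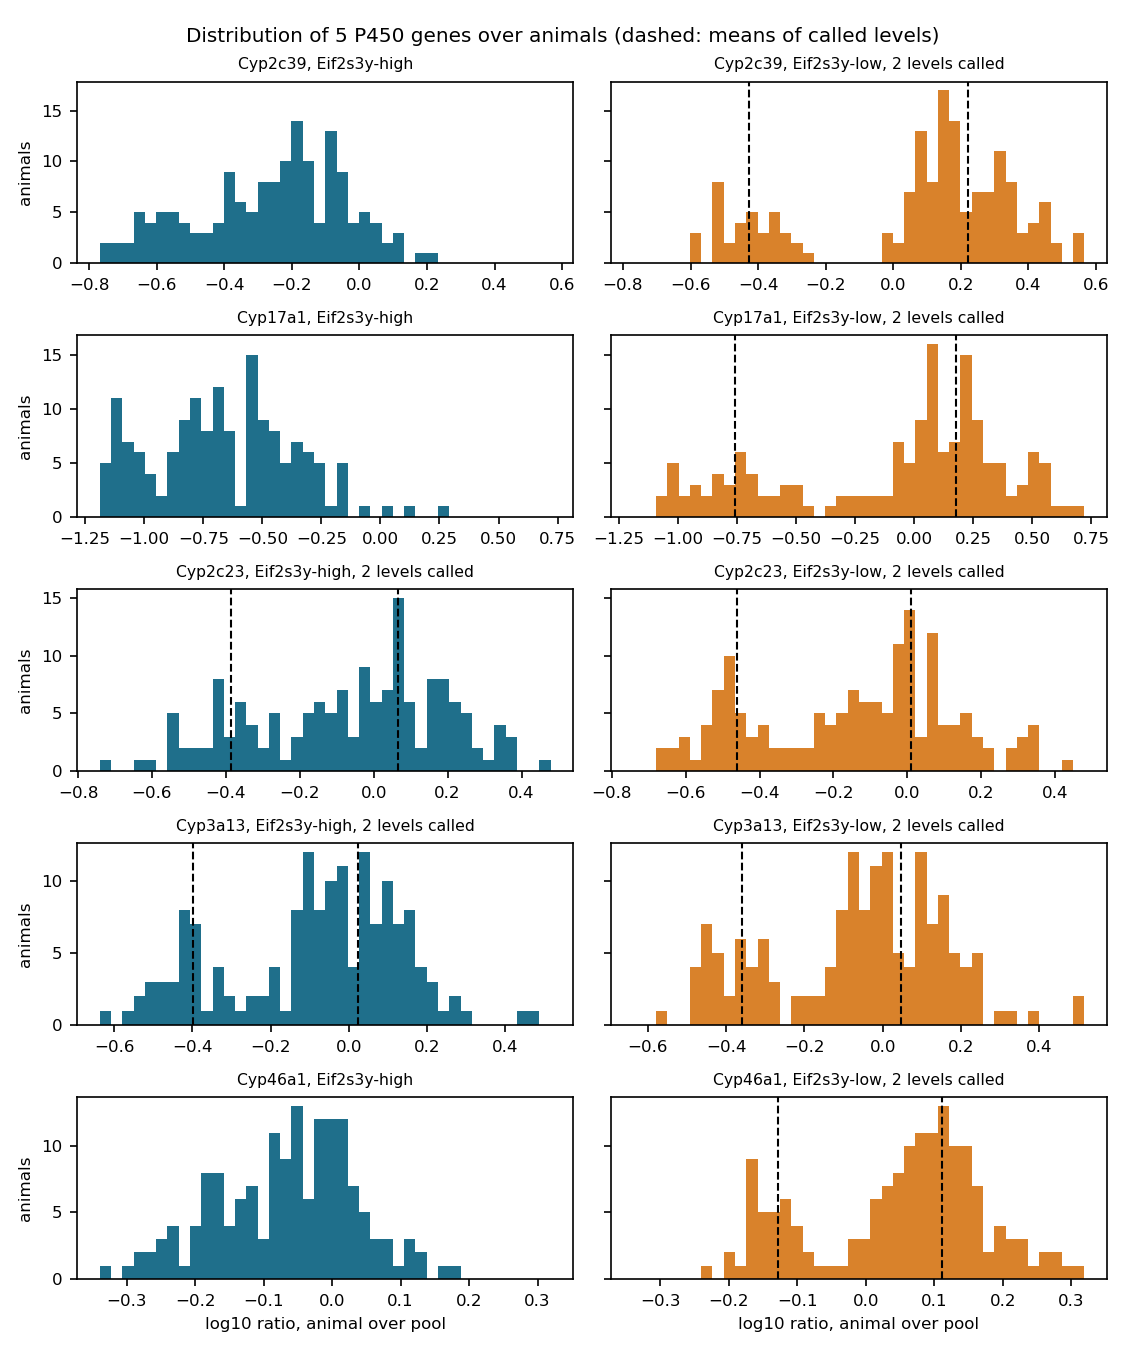
Number of animals by log10 ratio for Cyp17a1, Cyp2c23, Cyp2c39, Cyp3a13 and Cyp46a1, Eif2s3y-high arrays on the left and Eif2s3y-low arrays on the right, with dashed lines at the means of called levels. Cyp2c39 shows an empty stretch between -0.267 and -0.034 on Eif2s3y-low arrays, and Cyp17a1 has its lower level at -0.759 there.

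The levels of the genes on chromosome 19 went together. On Eif2s3y-low arrays, 37 of the 43 animals at the lower level of Cyp17a1 were also at the lower level of Cyp2c23 (86.0%), against 11 of 112 at the upper level (9.82%). None of those 43 was at the lower level of Cyp2c39, which allows a share of up to 6.98%, against 36 of 113 of the others (31.9%). None of the 48 at the lower level of Cyp2c23 was at the lower level of Cyp2c39 either, which allows up to 6.25%, against 35 of 107 (32.7%). So low Cyp17a1 and low Cyp2c23 fell in largely the same animals, and low Cyp2c39 in others. These limits cover counting error only.

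Between genes of different chromosomes the shares differed less. On Eif2s3y-low arrays, 33.3% of animals at the lower level of Cyp2c39 were at the lower level of Cyp46a1, against 20.8% at its upper level. For Cyp46a1 the shares were 16.3% and 26.5% at the lower and upper level of Cyp17a1, 17.5% and 26.1% at those of Cyp3a13, and 27.1% and 22.4% at those of Cyp2c23. At the lower level of Cyp3a13 were 32.6% and 23.2% of animals at the lower and upper level of Cyp17a1, 29.2% and 24.3% at those of Cyp2c23, and 22.9% and 26.7% at those of Cyp2c39. On Eif2s3y-high arrays it was 25.0% and 25.2% at those of Cyp2c23. None of these differences was tested.

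The genes nearest to Cyp17a1 by r on Eif2s3y-high arrays lay on the same chromosome. As3mt, the arsenite methyltransferase, followed it at r = 0.849 (rho = 0.866), Col17a1, a collagen of epithelial anchoring, at -0.612 (rho = -0.638), and Hps1, which acts in lysosome-related organelles, at 0.543 (rho = 0.583). Each had a two-sided permutation p of 1e-05, the smallest that 100000 permutations can give, and without the 2 animals farthest from the median r was 0.847, -0.612 and 0.567. On Eif2s3y-low arrays the nearest were As3mt, Col17a1 and Csrnp2, a nuclear protein gene on chromosome 15, and r was taken within the levels of Cyp17a1. As3mt had 0.675 at the lower level (n = 43) and 0.761 at the upper (n = 113), both with a permutation p of 1e-05, so it followed Cyp17a1 within each level too. Col17a1 had -0.325 (permutation p = 0.0336), which became -0.171 without the 2 most extreme animals and so rests on them, and -0.611 (permutation p = 1e-05). Csrnp2 had 0.169 (permutation p = 0.274) and -0.380 (permutation p = 1e-05).

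On Eif2s3y-high arrays Cyp2c39 was nearest to Col17a1 (r = 0.654, rho = 0.631), Papss2, which makes the sulfate donor of the cell (r = 0.591, rho = 0.534), and As3mt (r = -0.514, rho = -0.494), each with a permutation p of 1e-05. Its signs toward Col17a1 and As3mt are opposite to those of Cyp17a1. On Eif2s3y-low arrays the nearest were Csrnp2, Col17a1 and As3mt, with r of 0.633, 0.353 and -0.282 at the upper level of Cyp2c39 (n = 120, permutation p = 1e-05, 7e-05 and 0.00184). At its lower level (n = 36) r was -0.0415, -0.290 and 0.158, and none of these passed a permutation p of 0.05.

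Cyp2c23 had Col17a1, As3mt and, on Eif2s3y-high arrays, Pik3ap1, an adaptor of PI3 kinase on chromosome 19, among its nearest genes. At the upper level of Cyp2c23, r with Col17a1 was -0.455 on Eif2s3y-high arrays (n = 110) and -0.424 on Eif2s3y-low arrays (n = 107), each with a permutation p of 1e-05. At the lower level it was -0.351 (n = 43, permutation p = 0.0206) and -0.348 (n = 48, permutation p = 0.0141), the second becoming -0.218 without the 2 most extreme animals. Pik3ap1 had 0.546 at the lower level (permutation p = 0.00015) and 0.393 at the upper level (permutation p = 3e-05) of the Eif2s3y-high set. On Eif2s3y-low arrays Csrnp2 had -0.482 at the lower level (permutation p = 0.00044) and -0.290 at the upper level (permutation p = 0.00257). Cyp17a1 and Cyp2c23 thus share Col17a1 with the same sign, while Cyp2c39 has it with the opposite sign in pooled Eif2s3y-high animals.

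Wide genes without separate levels had other neighbours. For Cyp3a16 they were Rps6kb2, an S6 kinase (r = 0.734), PNPLA1 as the platform spells it (0.677) and Zbtb5, a zinc finger gene (-0.457), on Eif2s3y-high arrays. On Eif2s3y-low arrays they were Arsa, arylsulfatase A (-0.649), Kcnk12, a potassium channel subunit (0.635), and Slc22a26, of the organic anion transporters (0.618). Cyp2c55 shared Rps6kb2 (0.644) and PNPLA1 (0.619) on Eif2s3y-high arrays and ran with Scd1, the stearoyl-CoA desaturase (0.578). On Eif2s3y-low arrays it ran with Gsta2, a glutathione transferase (0.674), and against Slc13a3, a dicarboxylate transporter (-0.752), and Lrg1, an acute-phase glycoprotein (-0.713). All of these had a permutation p of 1e-05. Without the 2 farthest animals r lay between -0.759 and -0.445 where it was negative and between 0.521 and 0.757 where it was positive.

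Cyp1a1 and Cyp1a2, targets of the aryl hydrocarbon receptor that oxidise polycyclic and heterocyclic aromatic compounds, were shaped by a few animals. Cyp1a1 ran over -1.20, -0.883 and 0.339 (lowest, median, highest) on Eif2s3y-high arrays and over -1.24, -0.977 and 1.51 on Eif2s3y-low arrays. The multiple was 2.67 (1.89 to 3.52) and 6.73 (3.97 to 8.97), and the median absolute deviation gave 2.53 in the Eif2s3y-low set. In both sets the median animal lay far below the pool.

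5 Eif2s3y-low animals had Cyp1a1 10-fold or more above the median of their set, at 0.927, 1.02, 1.22, 1.36 and 1.51. Their Cyp1a2 values, in the same order, were 1.10, 0.784, 0.876, 0.805 and 0.777, the 5 highest of the set. Cyp1b1, the third member of the family and another target of the receptor, had in the same order -0.0414, -0.0385, 0.00249, -0.0469 and 0.0659, at ranks 66, 64, 37, 70 and 18. The 1 Eif2s3y-high animal past the same limit (Cyp1a1 0.339) had Cyp1a2 at -0.107, rank 91, and Cyp1b1 at 0.268, rank 5.

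Cyp1a2 by itself ran over -0.507, -0.0777 and 0.355 on Eif2s3y-high arrays and over -0.398, -0.0339 and 1.10 on Eif2s3y-low arrays, with multiples of 2.57 (2.28 to 2.83) and 4.02 (3.21 to 4.78). Over all Eif2s3y-high animals the pair had r = 0.180 (rho = 0.239, permutation p = 0.0256, adjusted p = 0.0960 over all gene pairs), and leaving out the 2 animals of most extreme Cyp1a1 gave 0.265. Because 5 Eif2s3y-low animals stand apart, r was taken there over the other 149, a choice made after the values were seen, and it was 0.534 (rho = 0.433, permutation p = 1e-05). The pair thus ran together in that set also without the 5 animals. Nearest to Cyp1a1 outside the family on Eif2s3y-low arrays, over all animals, were Taf1c, of the RNA polymerase I machinery, Atp13a1, an endoplasmic reticulum ATPase, and Hs2st1, a heparan sulfate sulfotransferase. Without the 5 animals Taf1c had r = 0.528 (rho = 0.354, permutation p = 1e-05), Atp13a1 0.271 (rho = 0.317, permutation p = 0.00095) and Hs2st1 0.293 (rho = 0.213, permutation p = 0.0003). On Eif2s3y-high arrays the nearest were Pcdhb16, Sorcs3 and Gucy1a2 (0.386, 0.381 and -0.377), and without the 2 farthest animals these became 0.108, 0.190 and -0.134, so they rest on those animals.

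The start regions of the pair differ in the letters of the receptor's core motif. The 250 bases before the RefSeq start are shown for both, from GRCm38.p6, with GCGTG (the core of the AHR-ARNT element) and TATAAA in capitals. Cyp1a1 is on the plus strand at chr9:57697363-57697612 and Cyp1a2 on the minus strand at chr9:57683656-57683905.
Cyp1a1: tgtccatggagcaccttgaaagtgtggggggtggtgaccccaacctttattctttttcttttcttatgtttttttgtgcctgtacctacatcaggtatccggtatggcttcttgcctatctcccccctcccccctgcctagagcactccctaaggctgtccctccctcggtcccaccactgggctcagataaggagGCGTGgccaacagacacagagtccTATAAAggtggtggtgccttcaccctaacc
Cyp1a2: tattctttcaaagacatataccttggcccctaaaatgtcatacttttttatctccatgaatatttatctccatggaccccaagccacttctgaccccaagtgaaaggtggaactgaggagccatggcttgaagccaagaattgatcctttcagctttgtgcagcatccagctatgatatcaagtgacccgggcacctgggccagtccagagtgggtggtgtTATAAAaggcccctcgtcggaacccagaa
Cyp1a1 held GCGTG 54 bases and TATAAA 30 bases before the start, and Cyp1a2 held TATAAA 29 bases before it and no GCGTG in this window. On either strand GCGTG was found in 8 of the 38 members with a RefSeq promoter and in 30.9% of 27018 genes, and TATAAA in 12 members and 14.3% of genes. A match of letters is a description and not a binding site, and no match says nothing beyond the window.

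Correlation between members was common within subfamilies. Of 72 pairs within a subfamily, 37 passed an adjusted p of 0.05 on Eif2s3y-high arrays (29 positive, 8 negative) and 36 on Eif2s3y-low arrays (27 positive, 9 negative), where 21.4% of all gene pairs did in each set, 11.1% with r above 0 and 10.3% below. Adjustment was by Benjamini-Hochberg over all 64826191 pairs of genes on the array, with p from the t distribution of r. Leaving out genes with separate levels, 31 of 62 and 28 of 56 pairs passed. Of the 1359 pairs from different subfamilies, 400 and 294 passed (29.4% and 21.6%). The median r was 0.138 and 0.127 within subfamilies and 0.0514 and 0.0393 between them, while over all gene pairs it was -0.0025 and -0.0029. Members of 1 subfamily are close in sequence, so part of a correlation may be shared hybridisation, which was not tested.

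**Figure D4:**
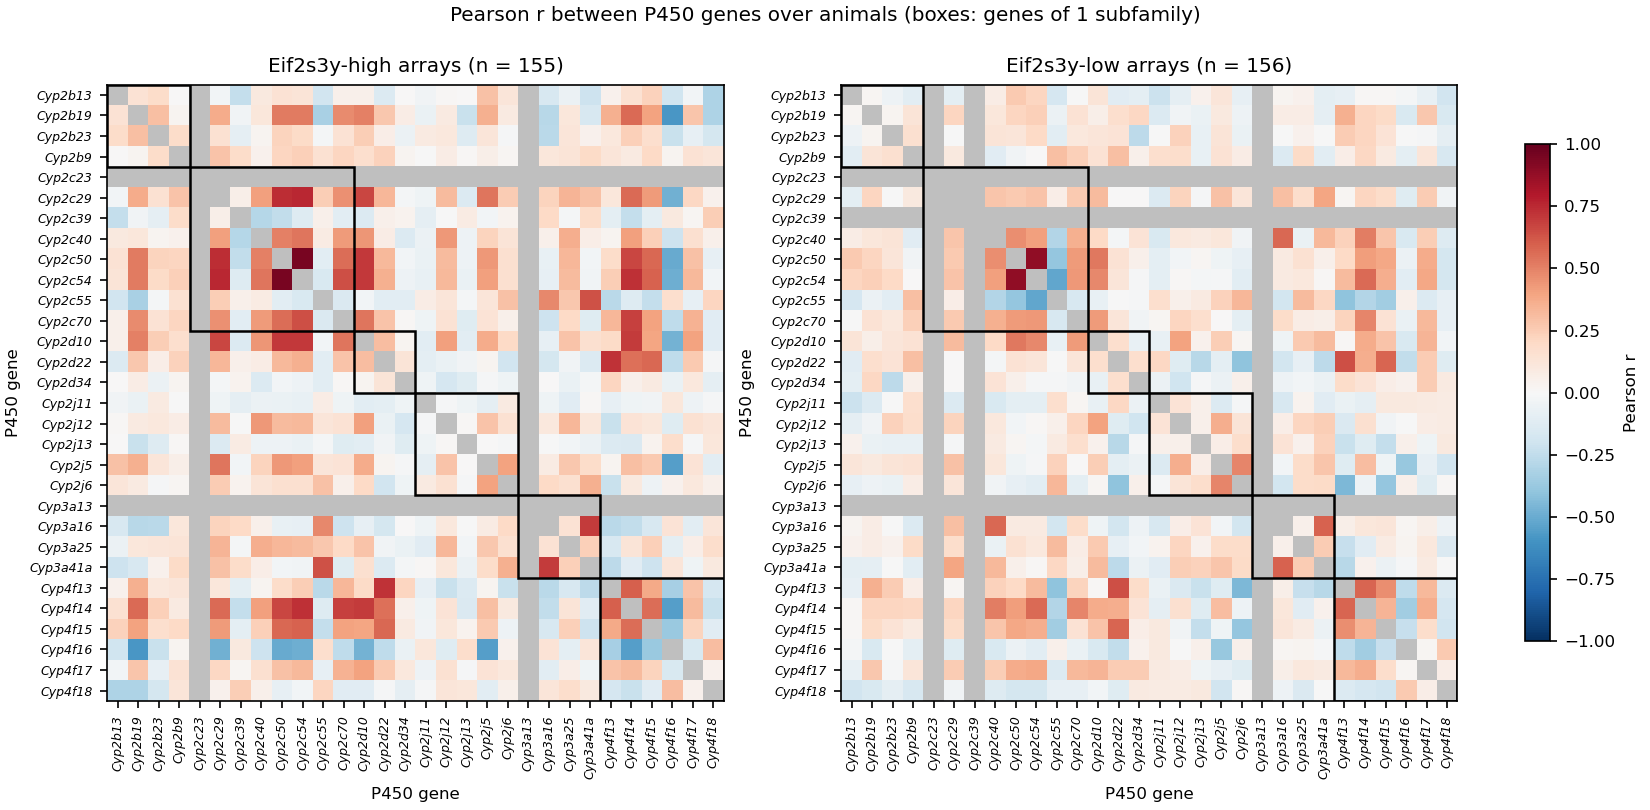
Pearson r over animals between the 30 P450 genes of the 6 subfamilies with at least 3 members, for Eif2s3y-high (left) and Eif2s3y-low (right) arrays, with boxes around subfamilies and blanks for genes with separate levels in that set. The boxes of Cyp2c and Cyp4f hold most of the strong values, positive and negative, and Cyp2j and Cyp2b hold few.

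Cyp2c had 18 of 28 pairs past the threshold on Eif2s3y-high arrays and 20 on Eif2s3y-low arrays. The closest pair was Cyp2c50 and Cyp2c54, neighbours on chromosome 19, at r = 0.952 (rho = 0.944, adjusted p = 1.15e-74) and 0.884 (rho = 0.860, adjusted p = 1.48e-47). Among animals with F2 numbers up to the median r was 0.954 and 0.894, and above it 0.951 and 0.879. Cyp2c29 followed Cyp2c54 at 0.756 on Eif2s3y-high and 0.287 on Eif2s3y-low arrays, and Cyp2c50 at 0.739 and 0.260. Cyp2c70 followed Cyp2c54 at 0.642 and 0.436. Cyp2c55 ran against Cyp2c54 at -0.520 on Eif2s3y-low arrays (adjusted p = 5.21e-10), where r was -0.151 on Eif2s3y-high arrays (adjusted p = 0.179). Without the 2 farthest animals these values moved by less than 0.05.

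Cyp2c23 was taken within its levels. Among the Eif2s3y-high animals it had r = -0.249 with Cyp2c39 at its lower level (n = 44, permutation p = 0.104) and -0.528 at its upper level (n = 111, permutation p = 1e-05). Cyp2c39 narrowly missed a call in that set (margin 8.77), and these values were not taken within levels of Cyp2c39. On Eif2s3y-low arrays both genes have levels, and r was taken within those of both. All 48 animals at the lower level of Cyp2c23 were at the upper level of Cyp2c39, with r = -0.408 (permutation p = 0.00387). The 72 animals at the upper level of both genes had 0.201 (permutation p = 0.0901), and the 35 at the upper level of Cyp2c23 and the lower of Cyp2c39 had -0.00507 (permutation p = 0.977). With Cyp2c54 it had r = -0.150 at the lower level (permutation p = 0.331) and 0.506 at the upper level (permutation p = 1e-05) of the Eif2s3y-high set, and -0.408 (permutation p = 0.00385) and 0.551 (permutation p = 1e-05) in the Eif2s3y-low set. The relation of Cyp2c23 to Cyp2c54 thus had opposite signs at its lower and its upper level on Eif2s3y-low arrays, a difference that was not tested.

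Among 4 measured Cyp3a members, Cyp3a16 and Cyp3a41a followed each other at r = 0.696 (rho = 0.709, adjusted p = 1.56e-20) and 0.590 (rho = 0.580, adjusted p = 2.18e-13), each with a permutation p of 1e-05. Cyp3a25 and Cyp3a41a had 0.234 (adjusted p = 0.0205) and 0.251 (adjusted p = 0.0115). For Cyp3a13 and Cyp3a25, whose pooled relation crosses the levels of Cyp3a13, r within the lower level was 0.230 (n = 39, permutation p = 0.160) and 0.293 (n = 40, permutation p = 0.0673), and within the upper level -0.0172 (n = 116, permutation p = 0.854) and -0.0281 (n = 115, permutation p = 0.765).

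The promoters of the closest Cyp3a pair are shown because they are near copies, with TATAAA and the HNF4A motif CAAAGTCCA in capitals (GRCm38.p6, minus strand, chr5:145469724-145469973 and chr5:145720137-145720386). HNF4A is a hepatocyte nuclear receptor that acts on many liver genes.
Cyp3a16: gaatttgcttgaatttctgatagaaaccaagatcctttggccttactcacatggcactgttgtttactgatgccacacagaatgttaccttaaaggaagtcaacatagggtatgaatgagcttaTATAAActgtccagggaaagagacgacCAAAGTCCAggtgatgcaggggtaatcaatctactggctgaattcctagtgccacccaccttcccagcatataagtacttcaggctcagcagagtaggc
Cyp3a41a: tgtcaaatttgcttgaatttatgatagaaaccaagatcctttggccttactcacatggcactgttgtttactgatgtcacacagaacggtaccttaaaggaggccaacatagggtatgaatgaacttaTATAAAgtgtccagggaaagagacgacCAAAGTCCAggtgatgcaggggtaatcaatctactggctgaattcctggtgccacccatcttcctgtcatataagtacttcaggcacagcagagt
They shared 232 of 254 aligned positions (91.3%). TATAAA lay 126 and CAAAGTCCA 99 bases before the start of Cyp3a16, and 122 and 95 bases before that of Cyp3a41a. CAAAGTCCA was found in 4 members (Cyp2c40, Cyp2c70, Cyp3a16 and Cyp3a41a) and in 0.452% of genes. Over the 49 same-subfamily pairs with both promoters the identity had a median of 52.5%, and over 654 pairs of different subfamilies 48.0%.

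In Cyp2b, a pair with nearly the same promoter had no measured correlation with the probes used. Cyp2b13 and Cyp2b9, on the plus strand at chr7:26061245-26061494 and chr7:26173159-26173408, share 248 of the 250 bases before the start (99.2% identity), and AGGTCA, the core bound by nuclear receptors, is in capitals 138 bases before each start.
Cyp2b13: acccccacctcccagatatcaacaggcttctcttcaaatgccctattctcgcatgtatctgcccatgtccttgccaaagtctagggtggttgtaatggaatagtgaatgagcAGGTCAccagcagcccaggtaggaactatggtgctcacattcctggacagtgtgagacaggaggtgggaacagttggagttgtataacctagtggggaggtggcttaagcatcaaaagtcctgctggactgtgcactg
Cyp2b9: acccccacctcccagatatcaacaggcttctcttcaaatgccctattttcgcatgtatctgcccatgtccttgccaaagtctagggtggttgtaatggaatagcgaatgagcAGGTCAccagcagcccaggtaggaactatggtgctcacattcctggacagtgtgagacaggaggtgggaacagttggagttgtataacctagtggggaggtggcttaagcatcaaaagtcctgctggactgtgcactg
Their r was 0.0003 on Eif2s3y-high (adjusted p = 0.999) and -0.107 on Eif2s3y-low arrays (adjusted p = 0.368). Both genes have another probe that does not follow the one used (r = -0.197 and -0.193 for Cyp2b13, and 0.00106 and -0.102 for Cyp2b9). With the most variable probe of each gene r was 0.409 (adjusted p = 6.19e-06) and 0.247 (adjusted p = 0.0141), so the probe decides the value. AGGTCA was present in all 4 measured Cyp2b members, in 10 members in all and in 15.8% of genes. Cyp2b19 and Cyp2b23 had 0.301 (adjusted p = 0.0017) on Eif2s3y-high arrays, where the other probe of Cyp2b19 followed the one used at only 0.294. Cyp2b9 followed Cyp2b10, the main phenobarbital-responsive gene of mouse liver, at 0.624 (rho = 0.477, adjusted p = 4.63e-15) and 0.350 (rho = 0.380, adjusted p = 0.000158).

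**Figure D5:**
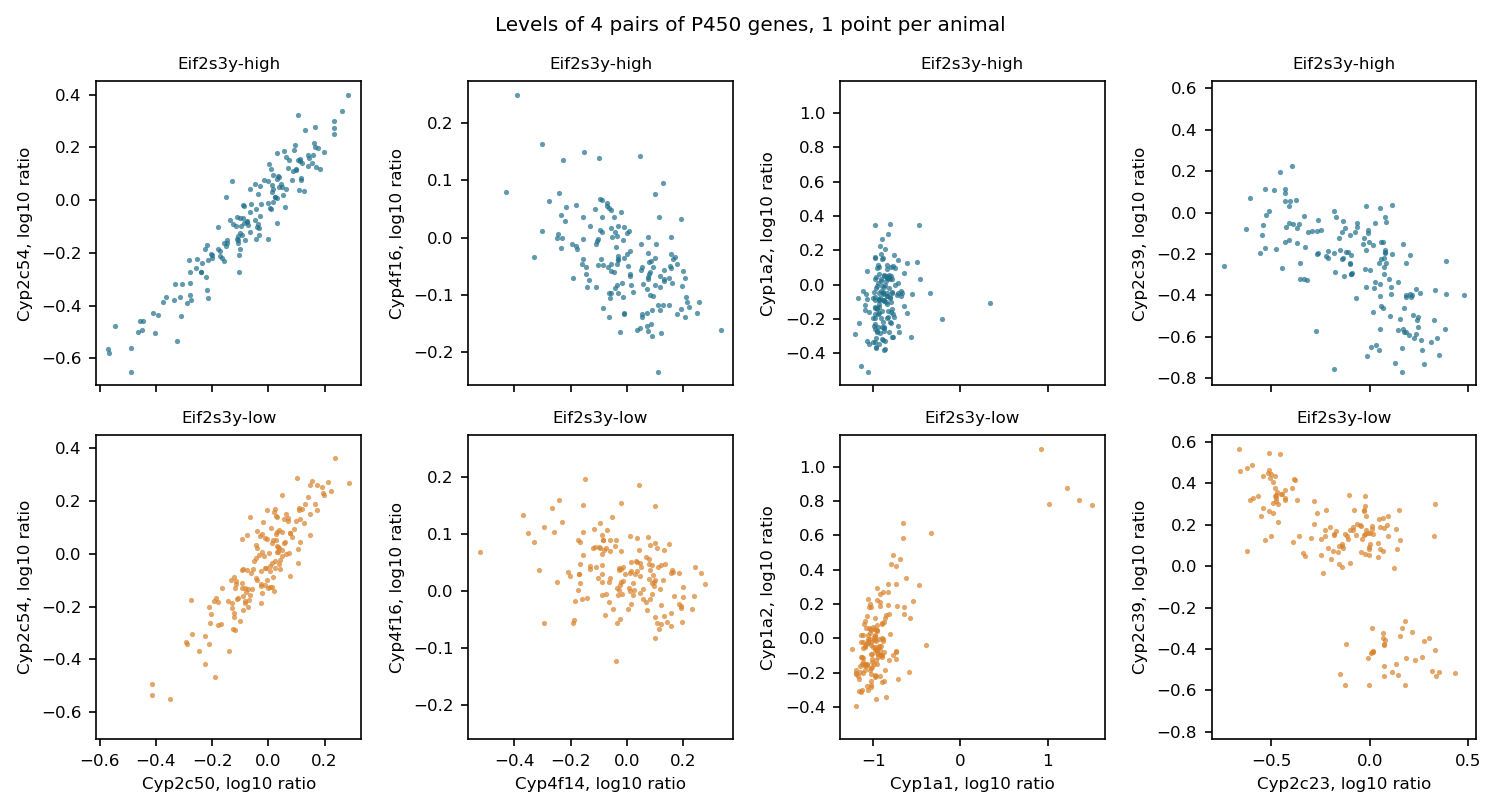
Log10 ratios of 4 pairs of P450 genes, 1 point per animal, with Eif2s3y-high arrays in the upper row and Eif2s3y-low arrays in the lower. Cyp2c50 and Cyp2c54 lie along a line in both (r = 0.952 and 0.884), and for Cyp1a1 and Cyp1a2 the 5 animals of high Cyp1a1 stand apart on Eif2s3y-low arrays.

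In Cyp4f, 11 of 15 pairs passed on Eif2s3y-high and 9 on Eif2s3y-low arrays, with both signs. Cyp4f13 and Cyp4f14 had r = 0.594 (adjusted p = 1.25e-13) and 0.579 (adjusted p = 8.15e-13), and Cyp4f14 and Cyp4f15 had 0.556 (adjusted p = 1.25e-11) and 0.338 (adjusted p = 0.000296). After removal of 5 principal components of all genes, Cyp4f14 and Cyp4f15 had 0.169 (adjusted p = 0.213) and 0.0184 (adjusted p = 0.934). Cyp4f16 ran against Cyp4f14 at -0.548 (adjusted p = 2.79e-11) and -0.350 (adjusted p = 0.000159), and it ran with Cyp4f18 at 0.312 and 0.265. Its 2 probes correlated at only 0.20 and 0.0979, and with the more variable one the r with Cyp4f14 was 0.0122 (adjusted p = 0.941) and -0.13 (adjusted p = 0.262). The negative direction toward Cyp4f14 therefore rests on the probe used. With Cyp4f18 the more variable probe of Cyp4f16 had 0.204 (rho = 0.258, permutation p = 0.0117) and 0.189 (rho = 0.108, permutation p = 0.0181), positive with either probe.

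Other subfamilies had few pairs. Cyp2j5 and Cyp2j6, of a subfamily of arachidonic acid epoxygenases, had r = 0.40 (adjusted p = 8.1e-06) and 0.487 (adjusted p = 1.18e-08), and 2 of 10 Cyp2j pairs passed in each set. Cyp2d10 and Cyp2d22 had 0.308 (adjusted p = 0.0012) on Eif2s3y-high arrays, and Cyp2d10 followed Cyp2d9, a testosterone 16-alpha-hydroxylase, at 0.591 (adjusted p = 1.9e-13) there and at 0.128 on Eif2s3y-low arrays. Cyp4b1 and its pseudogene copy Cyp4b1-ps2 had 0.916 (adjusted p = 1.67e-56) and 0.937 (adjusted p = 3.57e-66), a pair whose sequences may be read by each other's probe. The other probe of Cyp4b1 followed the one used at only 0.120 and 0.0338. The pairs Cyp2a12 with Cyp2a5 and Cyp4a14 with Cyp4a31 did not pass in either set.

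Of 40 partner pairs listed for P450 genes, 18 could be measured, and 6 passed in each set, where 21.4% of all gene pairs did. Some of them, such as Cyp4f14 with Cyp4f15 and Cyp2j5 with Cyp2j6, are pairs within a subfamily already counted above. On Eif2s3y-high arrays Cyp2c29 with Cyp2b10 (0.209, adjusted p = 0.0452) joined the pairs named above, and in both sets the count includes Cyp3a13 with Cyp3a25, which did not pass within the levels of Cyp3a13. On Eif2s3y-low arrays Cyp24a1, the vitamin D 24-hydroxylase, ran with the vitamin D receptor gene Vdr at 0.229 (adjusted p = 0.0238), against 0.113 on Eif2s3y-high arrays. Cyp4a14 ran with Acot1, an acyl-CoA thioesterase and another PPAR-alpha target, at 0.491 (rho = 0.458, adjusted p = 1.48e-08) on Eif2s3y-low arrays and at 0.198 (adjusted p = 0.0629) on Eif2s3y-high arrays. With the other, more variable probe of Cyp4a14 the Eif2s3y-high value was 0.502 (adjusted p = 4.29e-09). Cyp1a2 did not pass with Alas1, the first enzyme of haem synthesis (-0.172 and 0.158), nor with Glul, the pericentral glutamine synthetase (0.0345 and 0.116). The oxysterol enzymes Cyp7b1 and Cyp39a1 had -0.167 and 0.0811 and did not pass. Among vitamin D enzymes, Cyp27b1 had 0.148 and -0.0647 with Cyp24a1, and Cyp2r1, a vitamin D 25-hydroxylase, had 0.00947 and 0.0820 with Cyp27b1, all short of the threshold.

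Pairs of members were also grouped by position on the chromosome. Many near pairs belong to the same subfamily, so position and subfamily cannot be told apart here. The part of position in the correlations was not tested. Of 50 member pairs with at most 5 genes between them, 21 were positive and 2 negative past the threshold on Eif2s3y-high arrays, and 16 and 2 on Eif2s3y-low arrays, with a median r of 0.137 and 0.0937. Of the 34 pairs with 6 to 50 genes between them, 11 were positive and 4 negative, and 10 and 5, with medians of 0.118 and 0.0389. For the 68 pairs farther apart on the same chromosome, 17 were positive and 9 negative, and 15 and 6, with medians of 0.0286 and 0.0404. Of the 1279 pairs on different chromosomes, 273 were positive and 100 negative, and 205 and 71, with medians of 0.0514 and 0.0400. Over all gene pairs of the array 11.1% were positive and 10.3% negative in each set.

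Several of the strongest relations crossed subfamilies, and these pairs were chosen after their values were seen. Cyp26b1 and Cyp2b19 had r = 0.784 (rho = 0.797, adjusted p = 1.23e-29) on Eif2s3y-high arrays. The other probe of Cyp2b19 followed the one used at only 0.294 and -0.0384. Relations of Cyp2b19 given here therefore hold for the probe used. Cyp4f14 ran with Cyp7b1 at 0.758 (adjusted p = 2.54e-26) and 0.630 (adjusted p = 8.16e-16), and with Cyp2c54 at 0.727 (adjusted p = 2.93e-23) and 0.565 (adjusted p = 4.08e-12). Cyp2d22 ran with Cyp4f13 at 0.721 (adjusted p = 9.07e-23) and 0.648 (adjusted p = 5.75e-17). On Eif2s3y-high arrays Cyp7b1, Cyp26b1 and Cyp2b19 all correlated with each other (0.692 to 0.784). On Eif2s3y-low arrays Cyp2a12 ran with Cyp3a41a (0.616), and Cyp2c40 ran with Cyp3a16 (0.577) and Cyp2g1 (0.558), genes that were lower on Eif2s3y-high arrays. Every one of these had a permutation p of 1e-05.

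Genes that serve or set P450 enzymes were read from lists. Members named with them are among those of highest or lowest r, and they were picked after the values were seen. Of 17 measured receptors and factors, 176 of 918 pairs with members passed on Eif2s3y-high arrays (120 positive, 56 negative) and 194 on Eif2s3y-low arrays (118 positive, 76 negative), or 19.2% and 21.1%. These shares are near the 21.4% of all gene pairs. Hnf4a ran with 26 members and against 2 on Eif2s3y-high arrays, and with 19 and against 3 on Eif2s3y-low arrays. The share of all genes that passed with Hnf4a is not given here, nor for Cux2 and Alas1 below. Such counts therefore do not set the members apart from other genes. The highest member of Hnf4a on Eif2s3y-high arrays was Cyp26b1 (r = 0.636, rho = 0.625, adjusted p = 4.19e-16). On Eif2s3y-low arrays it was Cyp21a1, the steroid 21-hydroxylase (r = 0.447, rho = 0.390, adjusted p = 3.12e-07). The other probe of Cyp21a1 followed the one used at only 0.156 and 0.182. Hnf4a ran against Cyp4f16, whose probes disagree, at -0.469 on Eif2s3y-high arrays.

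Cux2, a transcription factor of female mouse liver, had a spread of 2.04 and 3.63 times the median SD. It passed with 1 member on Eif2s3y-high arrays and with 15 on Eif2s3y-low arrays, 13 of them positive, the highest being Cyp2g1 (r = 0.601, rho = 0.612, adjusted p = 4.91e-14). Without the share of all genes that passed with Cux2, these counts do not set the members apart. The difference between the sets was not tested. Cebpa, a hepatocyte transcription factor, ran with Cyp2d10 at r = 0.453 (adjusted p = 1.8e-07) and 0.620 (adjusted p = 3.85e-15). Nr3c1, the glucocorticoid receptor, ran with Cyp2a12 on Eif2s3y-high arrays (0.507, adjusted p = 1.9e-09) and with Cyp2d10 on Eif2s3y-low arrays (0.605, adjusted p = 3.08e-14). Nr1h3, the liver X receptor alpha, ran with Cyp4f13 at 0.550 (adjusted p = 2.65e-11) and 0.513 (adjusted p = 1.1e-09), and against Cyp20a1, a P450 of unknown substrate, at -0.440 and -0.469. Ppara ran with Cyp2d22 at 0.446 and 0.455, and Rxra, the common partner of Nr1h3 and Ppara, with Cyp2a5 at 0.498 and 0.441. Ppara also ran against Cyp1b1 at -0.432 on Eif2s3y-high arrays. Nr1i3, the constitutive androstane receptor, ran with Cyp4f15 at 0.549 (adjusted p = 2.52e-11) on Eif2s3y-high arrays. Against Cyp2r1 it had -0.427 (adjusted p = 1.41e-06) on Eif2s3y-low arrays. Each of these had a permutation p of 1e-05.

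Of the electron donors, 2 of 7 were measured. Fdx1, the ferredoxin of mitochondrial P450 enzymes, ran with Cyp7b1 at r = 0.503 (adjusted p = 2.98e-09) on Eif2s3y-high arrays. Against Cyp1b1 it had -0.407 (adjusted p = 5.05e-06) there. Pgrmc1, a haem-binding partner of P450 enzymes, ran with Cyp2j5 at 0.493 (adjusted p = 6.56e-09) on Eif2s3y-high and with Cyp2j6 at 0.458 (adjusted p = 1.31e-07) on Eif2s3y-low arrays. Against Cyp2d22 Pgrmc1 had -0.448 (adjusted p = 2.95e-07) on Eif2s3y-low arrays. In all, 32.4% and 23.1% of the 108 pairs passed (29 positive and 6 negative, and 17 and 8), where 21.4% of all gene pairs did in each set. The share on Eif2s3y-low arrays is thus near that of all gene pairs. Of the 7 measured genes of haem synthesis and breakdown, 20.4% and 13.2% of 378 pairs passed (42 positive and 35 negative, and 20 and 30). These shares lie near and below that of all gene pairs, so they do not set the members apart. Cpox, coproporphyrinogen oxidase, ran with Cyp2b13 at 0.448 (adjusted p = 2.99e-07) and 0.612 (adjusted p = 1.2e-14). These values hold for the probe used, as the other probe of Cyp2b13 did not follow it (r = -0.197 and -0.193). Hmox1, haem oxygenase, ran with Cyp39a1 at 0.550 (adjusted p = 2.31e-11) and 0.431 (adjusted p = 9.99e-07). On Eif2s3y-high arrays Hmox1 ran against Cyp4f13 at -0.427 (adjusted p = 1.29e-06). Blvrb, of the same list, ran against Cyp7b1 at -0.575 (adjusted p = 4.05e-12) there. On Eif2s3y-low arrays Blvrb ran against Cyp39a1 at -0.485 (adjusted p = 2.99e-08). Alas1 passed with no member on Eif2s3y-high arrays and with 4 on Eif2s3y-low arrays.

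Markers of cell types passed with members at shares on both sides of the 21.4% of all gene pairs. Of pairs with the 4 measured periportal markers (Hal, Pck1, Cdh1 and Ass1), 70 of 216 were positive and 7 negative on Eif2s3y-high arrays, and 60 and 13 on Eif2s3y-low arrays. Of pairs with the 4 pericentral markers (Glul, Slc1a2, Slc1a4 and Lect2), 22 were positive and 25 negative, and 13 and 15 (21.8% and 13.0% in all), near or below that share. The 5 stellate cell markers passed with 107 of 270 pairs (39 positive, 68 negative) and 81 (37 positive, 44 negative), and their mean log10 ratio ran between -0.280 and 0.202 on Eif2s3y-high and between -0.417 and 0.173 on Eif2s3y-low arrays. Lymphocyte markers passed with 45 of 162 pairs, 37 of them negative, and with 25, 23 of them negative (27.8% and 15.4% in all). Kupffer cell markers passed with 29.0% and 17.3%, adipose markers with 24.1% and 24.7%, cholangiocyte markers with 22.2% and 12.3%, and hepatocyte markers with 27.2% and 17.9%. Of these the cholangiocyte and adipose shares lie near or below that of all gene pairs, as do the lymphocyte, Kupffer cell and hepatocyte shares on Eif2s3y-low arrays. Pancreas markers passed with 3.33% and 4.44% of pairs and muscle markers with 3.24% and 0.463%, and kidney and adrenal markers with 12.0% and 13.9%. The part of these cell types in the correlations of members was not tested.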

How the data were processed

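Liver RNA of 311 animals was measured on 2-colour arrays, and the animals form 1 group in the labels. The deposited value table holds log10 ratios limited to -2 and 2, and the authors' normalization is not given in the sources used here. Per the labels the animal's RNA carried Cy3 and the pool Cy5. That base 10 and animal over pool are meant was checked on the values: a regression of mean on variance across genes gave a slope of -1.04, where a pool of all samples requires -1.15. Values were used as deposited, 0.745% were missing and 1990 lay at a limit.

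Of 23388 probes, 13645 named 1 gene, 48 several and 9695 none in the platform's table. Names were brought up to date through RefSeq (GRCm38.p6): 12653 by Entrez ID, 4 by accession, 214 by symbol and 93 by an older symbol, while 681 kept the platform's name. RefSeq promoters matched 38 of the 54 members, 5 of them with several starts.

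Spread intervals are percentiles over 1000 draws of the animals with replacement. Shapes were chosen by BIC and tested on simulated data of 155 animals. Of 500 simulated 3:1 mixtures with levels 3 SD apart 43% were called, of those 4 SD apart 99%, and of 2000 normal distributions 0.05%. Pairs had Pearson r adjusted by Benjamini-Hochberg over all gene pairs within a set of arrays, and printed pairs Spearman rho and two-sided permutation tests (100000 permutations). Named genes follow a rule: wide genes, mixtures, extreme pairs of each subfamily, partner pairs, the largest differences of medians, and the 3 nearest genes of the 6 widest. The members, lists and thresholds were chosen with earlier results of these data known. Alternatives were array centring, probe filter and choice, animals left out or divided by F2 number, the median absolute deviation, other thresholds, Spearman rho, and removal of principal components. Nothing states that arrays are more than 1 hybridisation of 1 animal, so the number of animals limits the precision. Tools were scipy 1.17.1, numba 0.67.0, numpy 2.4.6, matplotlib 3.10.9 and pandas 2.3.3 under Python 3.11.15, with the seed 2814.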

Additional observations from a re-analysis of the deposited data

How the results depend on the processing

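Of 103 alternative values of the counts and medians, 81 stayed close to the value reported. Keeping only probes present on every array left 36 members, 30 subfamily pairs and 8 partner pairs, so counts were smaller by construction: 7 wide members on Eif2s3y-high arrays, 0 mixtures on Eif2s3y-high and 3 on Eif2s3y-low arrays, 20 and 18 subfamily pairs, 3 and 2 partner pairs, and a median r of 0.173 on Eif2s3y-low arrays. A threshold of 2 times the median SD gave 22 and 20 wide members. A BIC margin of 20 left 1 mixture on Eif2s3y-high arrays (Cyp3a13) and 3 on Eif2s3y-low arrays (Cyp17a1, Cyp2c39 and Cyp46a1). Leaving out the 10 arrays of largest spread, or the 11 arrays strong in markers of pancreas or muscle (an alternative chosen after seeing the data), left 1 mixture on Eif2s3y-high arrays, and the first of these gave a median r of 0.0974 on Eif2s3y-low arrays. Animals with F2 numbers up to the median gave a median r of 0.116 and 3 partner pairs on Eif2s3y-high arrays and 22 subfamily pairs on Eif2s3y-low arrays, and animals above it 3 partner pairs on Eif2s3y-low arrays, with fewer animals in each. Removal of 5 principal components gave 23 and 16 subfamily pairs and a median r of 0.0821 on Eif2s3y-low arrays, and the cause was not tested. The count of 8 members with medians 2-fold apart stayed within 1.5 times under every alternative run for it. The correlation of Cyp4f14 with Cyp4f16 on Eif2s3y-high arrays changed sign with the most variable probe (0.0122) and after removal of 5 components (0.0233), and that of Cyp2b13 with Cyp2b9 on Eif2s3y-low arrays with the most variable probe (0.247). The median absolute deviation in place of the SD moved 17 of the 20 multiples of wide members by more than their error, though it gave 13 and 10 wide members: 3 multiples fell under the threshold (Cyp2b9 2.77 and Cyp2j11 1.36 on Eif2s3y-high, Cyp1a1 2.53 on Eif2s3y-low arrays). Animals with F2 numbers up to the median moved 7 of the 20, and those above it 8. Over all alternatives for named pairs and SD multiples, those above included, 612 stayed close, 32 moved and 3 changed sign. A further 22 lost and 15 gained their side of the threshold. No paired analysis was possible because the labels give 1 group and no replicate numbers. The precision depends on the number of animals, and several members rest on 1 of 2 probes that disagree.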
